A study of Mus musculus with 10 samples.

Results

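NRF2 targets and metallothioneins were followed in the stromal layer of a leukemia co-culture, mouse embryonic fibroblasts (MEFs) whose RNA was read on Mouse Gene 1.0 ST arrays. The set holds 10 genes out of 19938 with a probeset of their own: the NRF2 targets Nqo1, Hmox1, Gclc, Gclm, Txnrd1, Srxn1, Osgin1 and Gsta4, and the metallothioneins Mt1 and Mt2. Each gene was read by the probeset that pairs with its symbol alone and has the highest mean over the arrays; every one of the 10 had exactly 1 such probeset, and all 10 were measured. Values are log2 signals, so that a difference of 1 is a 2-fold difference in signal. They were not set against each other between genes, since probesets differ in how they read their transcripts.

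Dishes of wild type MEFs, irradiated with 1000 rad so that they no longer divided, were kept for 9 days in 4 ways. MEFs + ALL + nilotinib (3 arrays) shared their medium with 8093 acute lymphoblastic leukemia (ALL) cells and with 16 nM nilotinib, an inhibitor of the Abl kinase that is active in these Bcr/Abl transgenic cells. MEFs + ALL + DMSO (1 array) had the ALL cells with the solvent of the drug. MEFs + nilotinib (3 arrays) had the drug without ALL cells, and MEFs + DMSO (3 arrays) had the solvent alone. A Transwell membrane with pores of 0.4 µm was placed between the ALL cells and the MEFs. By the sample descriptions, the medium of every group, the controls included, held serum, IL-3 at 10 ng/ml and β-mercaptoethanol at 50 uM. β-mercaptoethanol is a thiol that eases the uptake of cystine. For the culture of 8093 cells the study's methods give less IL-3, and β-mercaptoethanol as a percentage. The triplicates were separate dishes, and p-values therefore measure the spread between dishes. The study's methods say that other dishes of the MEFs + ALL + DMSO group were contaminated by ALL cells and set aside. The remaining array of that group was assumed to vary like the other groups.

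NRF2, encoded by Nfe2l2, is a transcription factor that Keap1 holds in the cytoplasm and sends to degradation. Oxidants and electrophiles act on cysteines of Keap1, and the NRF2 that escapes pairs with a small MAF protein on antioxidant response elements (ARE) near genes for glutathione synthesis, thiol reduction and quinone detoxification. Bach1 competes with it at such sites. Metallothioneins are small proteins that bind zinc, copper and cadmium through cysteines; their genes are induced by zinc through the factor MTF-1, which binds metal response elements (MRE), and also by glucocorticoids and oxidative stress.

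Array medians ran from 6.94 to 7.01, and correlations between arrays over all probesets from 0.975 to 0.995. The MEFs + ALL + DMSO array stood apart on the leading principal component (30.8% of the variance), and replicate 2 of MEFs + ALL + nilotinib on the next (18.9%). Fibroblast markers were strong, with 10 of 11 among the brightest 25% of probesets. Of 19 leukocyte and pro-B markers, 17 had their highest value in the MEFs + ALL + DMSO array: their summed signal was 4118 to 4373 in MEFs + ALL + nilotinib, 15629 in MEFs + ALL + DMSO, 3781 to 4270 in MEFs + nilotinib and 4018 to 4307 in MEFs + DMSO. The summed signal of the fibroblast markers was 61915 to 62992 in MEFs + ALL + nilotinib, 55409 in MEFs + ALL + DMSO, 59592 to 65827 in MEFs + nilotinib and 65748 to 67230 in MEFs + DMSO. The array reads all RNA of a dish, so fewer cells of a type and less RNA per cell cannot be told apart.

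None of the 10 genes passed the test in the 3 comparisons that have replicates on either side. In MEFs + ALL + nilotinib over MEFs + DMSO limma called 0.627% of the 35557 probesets and 0 of the 10 genes at an adjusted p under 0.05, while 5 of the 10 had an unadjusted p below that level, all of them higher. The same holds of 16.2% of all probesets, and of 9.5% in the higher direction. In MEFs + ALL + nilotinib over MEFs + nilotinib it called 0.186% of probesets and 0 of the 10, with 2 of the 10 below 0.05 unadjusted, against 9.27% of probesets. In MEFs + nilotinib over MEFs + DMSO it called 0% of probesets and 0 of the 10, with 1 of the 10 below 0.05 unadjusted, against 11.2% of probesets. Mt2 and Mt1 had the largest differences of the set in both comparisons that involve ALL cells, and the calls that were made fell on Nqo1 and Srxn1 in comparisons with the lone MEFs + ALL + DMSO array. Comparisons with MEFs + DMSO share its 3 arrays, and the first 2 comparisons share the MEFs + ALL + nilotinib arrays.

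**Figure D1:**
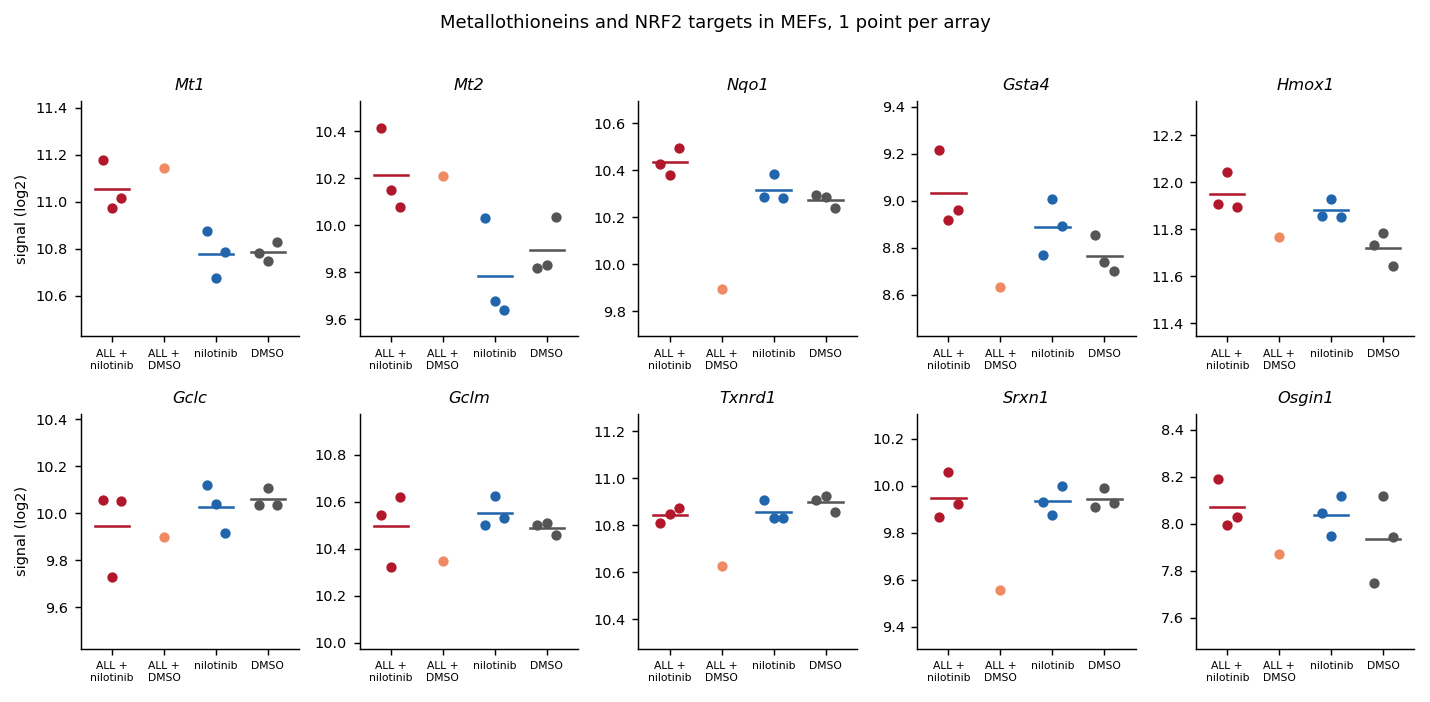
Signal (log2) of each of the 10 genes in every array, by group, with 1 point per array and a line at the mean of each group of 3; every panel spans 1 log2 unit. Mt1 and Mt2 lay higher in all 3 MEFs + ALL + nilotinib arrays and in the MEFs + ALL + DMSO array than in the other 6, while Nqo1, Gsta4, Txnrd1 and Srxn1 had their lowest value in the MEFs + ALL + DMSO array.

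The metallothioneins were the genes of the set that stood higher in every array with ALL cells than in every array without them. The share of all probesets with that pattern was not counted. Mt1 and Mt2 lie side by side on chromosome 8, after Mt4 and Mt3, and encode the broadly expressed metallothioneins, whereas Mt3 is known from brain and Mt4 from stratified epithelium. Their promoter windows, from 250 bases before the RefSeq gene start to 50 after it (build GRCm38.p6), are shown because these neighbours had like values over the arrays. The windows are Mt1 at chr8:94178839-94179138 and Mt2 at chr8:94172368-94172667, both on the + strand. Their starts are the annotated ones, and where transcription starts in these cells was not measured. Capitals mark the MRE cores TGCGCNC and TGCACNC on either strand and, in Mt2, the ARE core TGACNNNGC, so that a match on the other strand reads reversed and complemented.
Mt1: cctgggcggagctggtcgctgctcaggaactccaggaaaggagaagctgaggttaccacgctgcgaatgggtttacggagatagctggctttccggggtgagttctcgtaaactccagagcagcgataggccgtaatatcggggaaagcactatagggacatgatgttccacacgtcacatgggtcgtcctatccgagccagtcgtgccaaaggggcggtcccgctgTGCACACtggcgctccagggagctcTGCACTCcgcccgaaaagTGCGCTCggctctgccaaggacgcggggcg
Mt2: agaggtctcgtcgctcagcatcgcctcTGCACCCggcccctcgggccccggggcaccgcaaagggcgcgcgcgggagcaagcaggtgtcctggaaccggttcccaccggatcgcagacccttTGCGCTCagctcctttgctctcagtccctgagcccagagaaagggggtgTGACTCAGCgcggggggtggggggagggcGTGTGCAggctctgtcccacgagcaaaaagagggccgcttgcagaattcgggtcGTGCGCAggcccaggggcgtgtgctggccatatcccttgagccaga
The Mt1 window held 3 MRE cores and no ARE core, which says only that the letters of an ARE core are not in it. Mt2 held 4 MRE cores and 1 ARE core, TGACTCAGC, at -79 to -71 from the start, with no overlap between them. Over 32851 RefSeq windows of this length, 25.7% held at least 1 MRE core, 1.97% at least 3 and 0.517% at least 4. An ARE core, TGACNNNGC or TGAGNNNGC, stood in 27.8%. These matches are letters in a window and not measured binding sites.

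**Figure D2:**
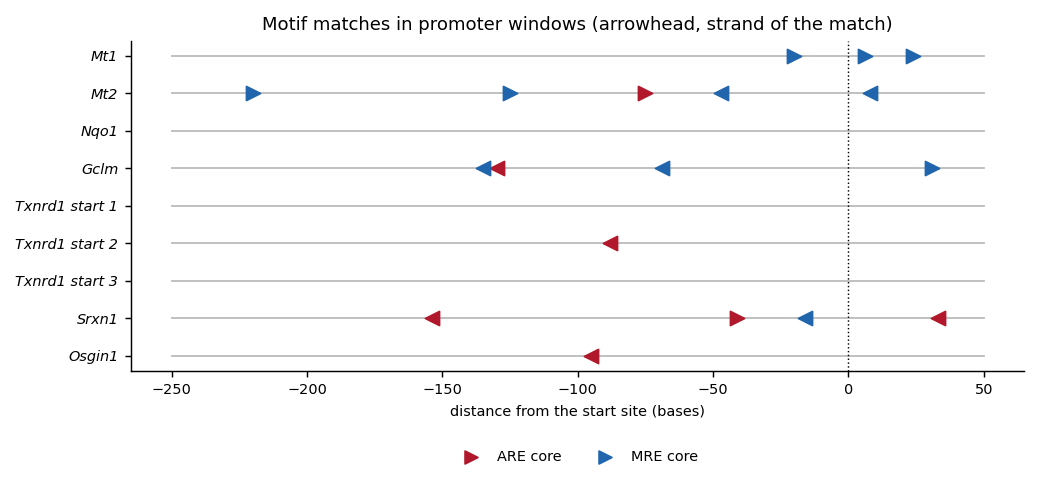
Matches of the ARE and MRE cores in the RefSeq promoter windows of the 7 genes that have one, by distance from the start site in bases; arrowheads point along the strand of the match. Mt2 and Mt1 hold 4 and 3 MRE cores, Srxn1 holds 3 ARE cores and Nqo1 holds neither motif.

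Mt1 had log2 signals of 11.18, 10.97 and 11.01 in MEFs + ALL + nilotinib, 11.14 in MEFs + ALL + DMSO, 10.88, 10.67 and 10.78 in MEFs + nilotinib, and 10.78, 10.75 and 10.83 in MEFs + DMSO. The 4 arrays with ALL cells were above the 6 without, and the drug groups with and without ALL cells did not overlap. The difference was 0.27 ± 0.08 (SE) in MEFs + ALL + nilotinib over MEFs + DMSO, a ratio of mean signals of 1.21 (adjusted p = 0.16, limma), and 0.28 ± 0.08 over MEFs + nilotinib (adjusted p = 0.32). Neither passed. Nilotinib without ALL cells gave a difference of -0.0067 (95% interval -0.19 to 0.17), and MEFs + ALL + DMSO over MEFs + DMSO gave 0.36 ± 0.11 (adjusted p = 0.078).

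Mt2 ran the same way with a wider spread. Its log2 signals were 10.41, 10.15 and 10.08 in MEFs + ALL + nilotinib, 10.21 in MEFs + ALL + DMSO, 10.03, 9.68 and 9.64 in MEFs + nilotinib, and 9.82, 9.83 and 10.04 in MEFs + DMSO. The arrays with ALL cells were again above all others, by little in the case of the highest arrays of MEFs + nilotinib and MEFs + DMSO. The difference was 0.32 ± 0.13 (SE) in MEFs + ALL + nilotinib over MEFs + DMSO (ratio of mean signals 1.25, adjusted p = 0.28) and 0.43 ± 0.13 over MEFs + nilotinib (ratio 1.35, adjusted p = 0.35). It was -0.11 (95% interval -0.41 to 0.19) for nilotinib without ALL cells and 0.32 ± 0.18 in MEFs + ALL + DMSO over MEFs + DMSO (adjusted p = 0.31). In order of group means, MEFs + ALL + nilotinib (10.21 ± 0.18, SD, n = 3) and the MEFs + ALL + DMSO array (10.21) differed by 0.0033, and MEFs + DMSO (9.89 ± 0.12) and MEFs + nilotinib (9.78 ± 0.22) differed by less than their spread.

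Without replicate 2 of MEFs + ALL + nilotinib, which stood apart, the difference over MEFs + DMSO was 0.31 for Mt1 (adjusted p = 0.14) and 0.35 for Mt2 (adjusted p = 0.26). Without replicate 1, the highest array of both genes, it was 0.21 for Mt1 (adjusted p = 0.37) and 0.22 for Mt2 (adjusted p = 0.54). Between these groups the summed fibroblast markers did not overlap, with MEFs + ALL + nilotinib the lower, and the summed leukocyte markers overlapped. Of the 11 fibroblast markers 1 was called there, Thy1, which was higher by 0.60 (adjusted p = 0.042) and lost its call in 8 of 14 alternatives. Of 19 leukocyte and pro-B, 11 macrophage, 8 endothelial and 7 epithelial markers 0 were called. The part of these markers in the metallothionein values was not tested. The neighbours Mt3 and Mt4 had differences of 0.07 (adjusted p = 0.80) and -0.18 (adjusted p = 0.42) in the same comparison. Mtf1, the gene of the zinc-sensing factor, differed by 0.09 (adjusted p = 0.55) and Slc30a1, a zinc exporter that MTF-1 induces, by 0.09 (adjusted p = 0.65).

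In the list of 22 metallothionein, zinc transport and MTF-1 related genes, 0 were called in MEFs + ALL + nilotinib over MEFs + DMSO, with a median difference of 0.06 against -0.0042 over all probesets. The zinc transporter Slc39a7 had -0.53 (adjusted p = 0.21) and Slc39a8, a zinc importer, 0.21 (adjusted p = 0.22). In MEFs + ALL + DMSO over MEFs + DMSO 1 of the 22 was called, Mtf2, higher by 0.96 (adjusted p = 0.024). Its product is a Polycomb protein that reads methylated histone and, despite its name, is not the zinc sensor; the call was lost without replicate 2 or replicate 3 of MEFs + DMSO. The median of the list there was -0.07, and that of all probesets -0.07.

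Of the NRF2 targets, Nqo1, Hmox1 and Gsta4 had MEFs + ALL + nilotinib arrays that lay wholly above those of MEFs + DMSO. With Mt1 and Mt2 that makes 5 of the 10 genes, where 14.1% of all probesets were higher without overlap. Over MEFs + nilotinib only the metallothioneins did so, 2 of the 10, where 7.8% of all probesets did. No gene of the set lay wholly lower in either comparison. Of all 35557 probesets, 3760 lay wholly lower over MEFs + DMSO and 2355 over MEFs + nilotinib.

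Hmox1, the heme oxygenase that opens heme to biliverdin, had 11.91, 12.05 and 11.89 in MEFs + ALL + nilotinib, 11.76 in MEFs + ALL + DMSO, 11.86, 11.93 and 11.85 in MEFs + nilotinib, and 11.73, 11.78 and 11.64 in MEFs + DMSO. The 6 arrays with the drug were above the 3 MEFs + DMSO arrays, and the MEFs + ALL + DMSO array lay among those 3. The difference was 0.23 ± 0.07 (SE) in MEFs + ALL + nilotinib over MEFs + DMSO (ratio of mean signals 1.17, adjusted p = 0.17) and 0.16 ± 0.07 in MEFs + nilotinib over MEFs + DMSO (adjusted p = 0.44). With ALL cells added to the drug it was 0.07 ± 0.07 (adjusted p = 0.78).

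Gsta4 encodes a glutathione transferase that clears lipid aldehydes such as hydroxynonenal. It had 9.21, 8.92 and 8.96 in MEFs + ALL + nilotinib, 8.63 in MEFs + ALL + DMSO, 8.77, 9.01 and 8.89 in MEFs + nilotinib, and 8.85, 8.74 and 8.70 in MEFs + DMSO. The drug groups overlapped, and the MEFs + ALL + DMSO array was below all others. The difference was 0.27 ± 0.10 (SE) in MEFs + ALL + nilotinib over MEFs + DMSO (ratio of mean signals 1.21, adjusted p = 0.24) and 0.40 ± 0.14 over MEFs + ALL + DMSO (adjusted p = 0.19).

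The genes of glutathione synthesis and thiol reduction, and Osgin1, overlapped between MEFs + ALL + nilotinib and MEFs + DMSO. Gclc and Gclm, the catalytic and modifier subunits of glutamate-cysteine ligase, had differences of -0.11 (95% interval -0.34 to 0.12) and 0.0063 (-0.19 to 0.20) in MEFs + ALL + nilotinib over MEFs + DMSO. Both had their lowest value in replicate 2 of MEFs + ALL + nilotinib, 9.73 for Gclc and 10.32 for Gclm. Without that array Gclc had -0.0041, and without any other 1 array of these groups -0.17 to -0.090. Txnrd1, the cytosolic thioredoxin reductase, had -0.05 (-0.18 to 0.07), and Srxn1, the sulfiredoxin that restores overoxidised peroxiredoxins, had 0.0065 (-0.15 to 0.17). Osgin1, a stress-induced growth inhibitor, had 0.13 (-0.10 to 0.37), with 0.040 without replicate 1 and 0.23 without replicate 2 of MEFs + DMSO, and 0.074 without replicate 1 of MEFs + ALL + nilotinib. Adjusted p-values ran from 0.57 for Osgin1 to 0.98 for Gclm, and the intervals still admit differences in either direction.

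**Figure D3:**
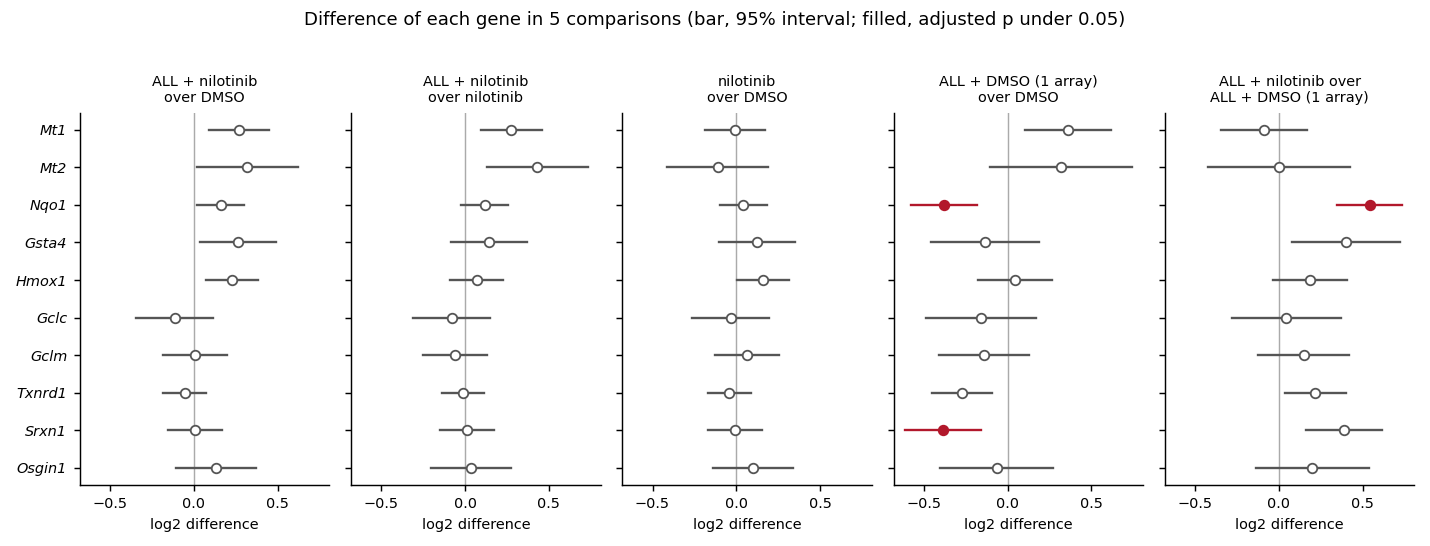
Log2 difference of each of the 10 genes (points) with its 95% interval (bars) in 5 comparisons; filled red points have an adjusted p under 0.05 over all probesets. The filled points are Nqo1 and Srxn1 in MEFs + ALL + DMSO over MEFs + DMSO, at -0.38 each, and Nqo1 in MEFs + ALL + nilotinib over MEFs + ALL + DMSO, at 0.54.

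The calls among the 10 genes all involved the lone MEFs + ALL + DMSO array. Nqo1 and Srxn1 were lower there than in MEFs + DMSO, 2 of the 10 genes, where limma called 10.3% of all probesets and 3.59% as lower. Set over MEFs + ALL + DMSO, MEFs + ALL + nilotinib had a higher Nqo1, 1 of the 10, in a comparison where limma called 4.34% of all probesets and 0.582% as higher. The promoter windows of this pair are shown because their ARE content differs while their differences from MEFs + DMSO in that array were alike: Nqo1 at chr8:107403156-107403455 on the - strand and Srxn1 at chr2:152105274-152105573 on the + strand (GRCm38.p6), each read along its gene, with ARE and MRE cores of either strand in capitals.
Nqo1: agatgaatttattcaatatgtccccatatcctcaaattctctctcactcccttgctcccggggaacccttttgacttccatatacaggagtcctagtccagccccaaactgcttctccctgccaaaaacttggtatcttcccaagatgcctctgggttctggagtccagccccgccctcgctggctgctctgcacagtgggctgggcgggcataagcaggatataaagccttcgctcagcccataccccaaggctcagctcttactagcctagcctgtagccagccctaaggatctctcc
Srxn1: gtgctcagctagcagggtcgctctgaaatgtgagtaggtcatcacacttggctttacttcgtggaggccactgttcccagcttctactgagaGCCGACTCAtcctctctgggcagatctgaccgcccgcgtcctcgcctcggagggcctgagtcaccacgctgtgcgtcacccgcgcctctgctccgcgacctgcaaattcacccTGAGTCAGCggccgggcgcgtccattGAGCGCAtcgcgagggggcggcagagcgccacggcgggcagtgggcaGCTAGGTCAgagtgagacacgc
Srxn1 held 3 ARE cores, at -158 to -150, at -45 to -37 (TGAGTCAGC) and at 29 to 37, and 1 MRE core, and 4.68% of all windows held at least 2 ARE cores. The Nqo1 window held neither motif, which says only that these letters are not in it. Gclm, Osgin1 and 1 of the 3 windows of Txnrd1 held 1 ARE core each, and in Gclm it overlapped 1 of 3 MRE cores. Windows were matched for 7 of the 10 genes, and not for Hmox1, Gclc and Gsta4.

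Nqo1, the quinone reductase that serves as the usual readout of NRF2 activity, had log2 signals of 10.43, 10.38 and 10.49 in MEFs + ALL + nilotinib, 9.89 in MEFs + ALL + DMSO, 10.29, 10.38 and 10.28 in MEFs + nilotinib, and 10.30, 10.29 and 10.24 in MEFs + DMSO. The 9 other arrays lay between 10.24 and 10.49, and the MEFs + ALL + DMSO array lay below them all. The difference was -0.38 ± 0.09 (SE) in MEFs + ALL + DMSO over MEFs + DMSO (adjusted p = 0.028) and 0.54 ± 0.09 in MEFs + ALL + nilotinib over MEFs + ALL + DMSO (adjusted p = 0.0077). In the replicated comparisons it was 0.16 ± 0.06 in MEFs + ALL + nilotinib over MEFs + DMSO (ratio of mean signals 1.12, adjusted p = 0.25), 0.12 ± 0.06 over MEFs + nilotinib (adjusted p = 0.59) and 0.04 ± 0.06 for the drug alone (adjusted p = 0.83). Dishes with ALL cells differed from those without by 0.12 under nilotinib and by -0.38 under DMSO. The interaction of 0.50 ± 0.11 was called (adjusted p = 0.037, limma), for 1 of the 10 genes. Of all probesets 3.95% had a called interaction and 0.399% a positive one. The -0.38 and the interaction rest on the lone MEFs + ALL + DMSO array, whose summed leukocyte and pro-B signal was 15629. The part of that signal in them was not tested.

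Srxn1 had 9.87, 10.06 and 9.92 in MEFs + ALL + nilotinib, 9.56 in MEFs + ALL + DMSO, 9.93, 9.87 and 10.0 in MEFs + nilotinib, and 9.91, 9.99 and 9.93 in MEFs + DMSO. The 3 replicated groups overlapped and the MEFs + ALL + DMSO array was lowest. The difference was -0.38 ± 0.10 (SE) in MEFs + ALL + DMSO over MEFs + DMSO (adjusted p = 0.045), and 0.39 ± 0.10 in MEFs + ALL + nilotinib over MEFs + ALL + DMSO, which did not pass (adjusted p = 0.075). Txnrd1 ran alike and did not pass, with 10.81, 10.85 and 10.87 in MEFs + ALL + nilotinib, 10.63 in MEFs + ALL + DMSO, 10.91, 10.83 and 10.83 in MEFs + nilotinib and 10.91, 10.93 and 10.86 in MEFs + DMSO, and a difference of -0.27 ± 0.08 from MEFs + DMSO (adjusted p = 0.067).

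In all, the MEFs + ALL + DMSO array was the lowest of the 10 for 4 of the 8 NRF2 targets and for neither metallothionein, where it ranked as the ninth from the bottom. Over all probesets it was lowest for 25.2% and highest for 15.7%. Leaving out any 1 MEFs + DMSO array moved Nqo1 to between -0.40 and -0.37 and Srxn1 to between -0.40 and -0.36, and left 0 of the 10 genes called. The summed leukocyte and pro-B signal of 15629 in that array, against 4018 to 4307 in MEFs + DMSO, and its fibroblast sum of 55409, against 65748 to 67230, moved with these values, and their part was not tested. The fibroblast markers did not share a direction: of 11, 3 stood higher in that array than in MEFs + DMSO and 8 lower. Their differences ran from -0.72 to 0.65. Of the epithelial markers 2 were called higher in that array and 3 lower, of the endothelial ones 1 higher and of the macrophage ones 0.

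Among the regulators of NRF2, 0 of 13 were called in MEFs + ALL + nilotinib over MEFs + DMSO. Nfe2l2 itself had 10.68, 10.51 and 10.50 in MEFs + ALL + nilotinib, 10.64 in MEFs + ALL + DMSO, 10.37, 10.60 and 10.48 in MEFs + nilotinib, and 10.35, 10.31 and 10.21 in MEFs + DMSO. Every array with ALL cells, the drug or both was above every MEFs + DMSO array. The share of all probesets with that pattern was not counted. Wholly above MEFs + DMSO lay 14.1% of all probesets in MEFs + ALL + nilotinib, and 4830 of 35557 in MEFs + nilotinib. The Nfe2l2 difference was 0.28 ± 0.08 (SE) in MEFs + ALL + nilotinib over MEFs + DMSO (adjusted p = 0.17, limma). Keap1 had 0.14 (adjusted p = 0.34) and Bach1 -0.0018 (adjusted p = 0.99). The small MAF genes, whose products pair with NRF2, did not share a direction, with 0.38 for Maff (adjusted p = 0.12) and -0.38 for Mafk (adjusted p = 0.11). The median of the 13 was -0.02.

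In the MEFs + ALL + DMSO array 3 of the 13 regulators were called lower than in MEFs + DMSO and 1 higher, where limma called 10.3% of all probesets and 3.59% as lower. Mafk fell by 0.72 (adjusted p = 0.0097), Mafg by 0.54 (adjusted p = 0.030) and Nfe2l1, an NRF2 relative that drives proteasome genes, by 0.52 (adjusted p = 0.010). Bach2, a repressor known from B cells, was higher by 0.95 (adjusted p = 0.0018). The call of Mafg was lost when any 1 MEFs + DMSO array was left out. The leukocyte and pro-B sum of 15629 in that array, against 4018 to 4307 in MEFs + DMSO, and the lower fibroblast sum moved with these calls too, and their part was not tested.

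Slc7a11, the cystine importer of the cystine-glutamate exchange and an NRF2 and ATF4 target, was the gene called among the 12 of glutathione synthesis and recycling that were measured. It had 8.40, 8.26 and 8.34 in MEFs + ALL + nilotinib, 7.70 in MEFs + ALL + DMSO, 8.62, 8.47 and 8.54 in MEFs + nilotinib, and 8.66, 8.63 and 8.66 in MEFs + DMSO. The groups did not overlap, with MEFs + DMSO on top and the MEFs + ALL + DMSO array at the bottom. Set over MEFs + DMSO, MEFs + ALL + nilotinib had a difference of -0.32 ± 0.06 (SE), which did not pass (adjusted p = 0.077), and MEFs + ALL + DMSO one of -0.95 ± 0.09 (adjusted p = 0.00030). MEFs + ALL + nilotinib was higher than MEFs + ALL + DMSO by 0.63 ± 0.09 (adjusted p = 0.0044). The call of MEFs + ALL + DMSO over MEFs + DMSO was made under each of the 9 alternatives run, and that of MEFs + ALL + nilotinib over MEFs + ALL + DMSO was lost in 1 of 9, with only the groups compared (adjusted p = 0.17). In the list as a whole 0 of 12 genes were called in MEFs + ALL + nilotinib over MEFs + DMSO, where Glrx, a glutaredoxin, had 0.34 (adjusted p = 0.34) and Gss, glutathione synthetase, 0.21 (adjusted p = 0.17).

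**Figure D4:**
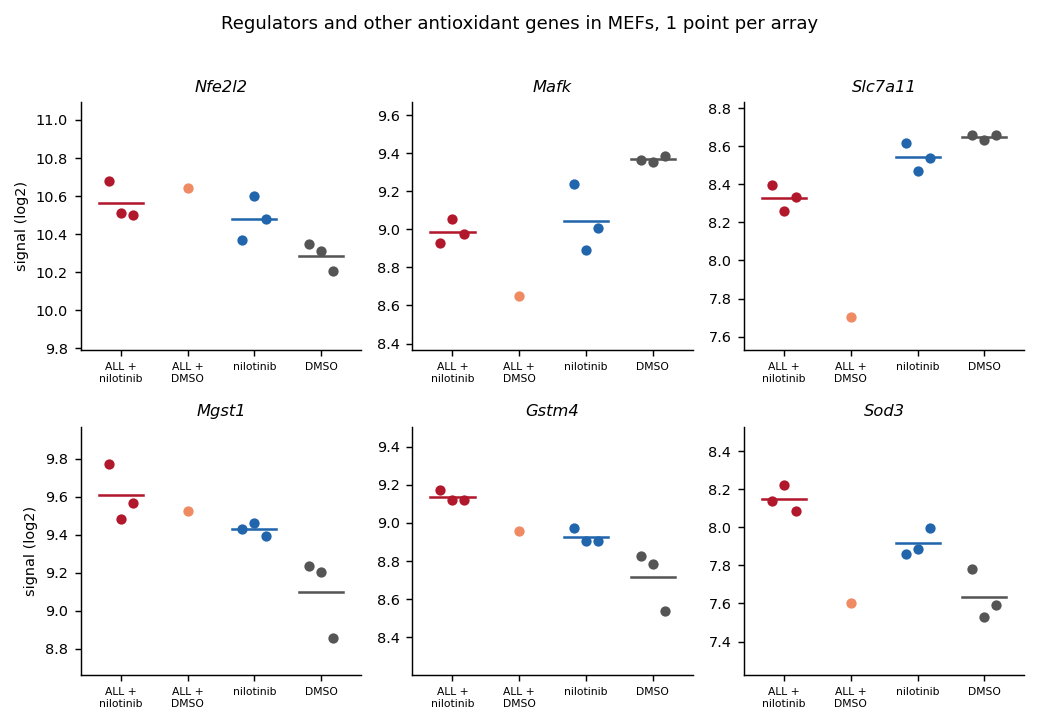
Signal (log2) of Nfe2l2, Mafk, Slc7a11, Mgst1, Gstm4 and Sod3 in every array, by group, with 1 point per array and a line at the mean of each group of 3; every panel spans 1.3 log2 units. Slc7a11 was at 7.70 in the MEFs + ALL + DMSO array and between 8.26 and 8.66 in the others, and Sod3 was at 8.08 or above in MEFs + ALL + nilotinib and at 7.78 or below in MEFs + DMSO.

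Glutathione S-transferases, which join glutathione to electrophiles, had the highest median of the lists of NRF2-related genes in MEFs + ALL + nilotinib over MEFs + DMSO. None of 18 was called, 10 had an unadjusted p under 0.05 in limma's test, all higher, and the median was 0.20. An unadjusted p under that level was found for 16.2% of all probesets, and for 9.5% in the higher direction, and the median difference of all probesets was -0.0042. The microsomal Mgst1 had 9.77, 9.48 and 9.57 in MEFs + ALL + nilotinib, 9.52 in MEFs + ALL + DMSO, 9.43, 9.46 and 9.39 in MEFs + nilotinib, and 9.23, 9.20 and 8.86 in MEFs + DMSO, at a difference of 0.51 ± 0.11 (SE, adjusted p = 0.098). Gstm4 differed by 0.42 ± 0.08 (adjusted p = 0.072) and Gstm2 by 0.42 ± 0.09 (adjusted p = 0.079). Part of these differences was there without ALL cells: MEFs + nilotinib over MEFs + DMSO gave 0.33 for Mgst1 (adjusted p = 0.39), 0.21 for Gstm4 (adjusted p = 0.41) and 0.29 for Gstm2 (adjusted p = 0.36). The Gstm genes are close copies of each other, and whether their probesets read more than 1 of them was not tested. Mgst2, called as higher by 2.70 in MEFs + ALL + DMSO over MEFs + DMSO (adjusted p = 3.2e-05), had 9.75 in the MEFs + ALL + DMSO array and 7.26 to 7.61 in MEFs + ALL + nilotinib, 7.07 to 7.26 in MEFs + nilotinib and 6.92 to 7.27 in MEFs + DMSO. In the same comparison 17 of the 19 leukocyte and pro-B markers were called higher, with a median of 2.21, and their part in the value of Mgst2 was not tested.

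Of 15 further genes for the handling of quinones, aldehydes and superoxide and for export, 1 was called in MEFs + ALL + nilotinib over MEFs + DMSO. Sod3, the superoxide dismutase of the extracellular matrix, had 8.14, 8.22 and 8.08 in MEFs + ALL + nilotinib, 7.60 in MEFs + ALL + DMSO, 7.86, 7.89 and 8.0 in MEFs + nilotinib, and 7.78, 7.53 and 7.59 in MEFs + DMSO. The MEFs + ALL + nilotinib arrays were above all others and the MEFs + nilotinib arrays above those without the drug. Sod3 rose by 0.51 ± 0.08 (SE, adjusted p = 0.041) over MEFs + DMSO and by 0.55 ± 0.12 over MEFs + ALL + DMSO (adjusted p = 0.035), while MEFs + nilotinib over MEFs + DMSO gave 0.28 ± 0.08 (adjusted p = 0.36). The call over MEFs + DMSO was lost in 9 of 14 alternatives, among them leaving out any 1 of the 6 arrays, and that over MEFs + ALL + DMSO in 4 of 9, among them leaving out any 1 MEFs + ALL + nilotinib array (adjusted p = 0.062 to 0.078) and with only the groups compared (adjusted p = 0.24). In the same list Cbr3, a carbonyl reductase, had 0.30 (adjusted p = 0.21) and Abcc4, an exporter of conjugates, -0.36 (adjusted p = 0.22).

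**Figure D5:**
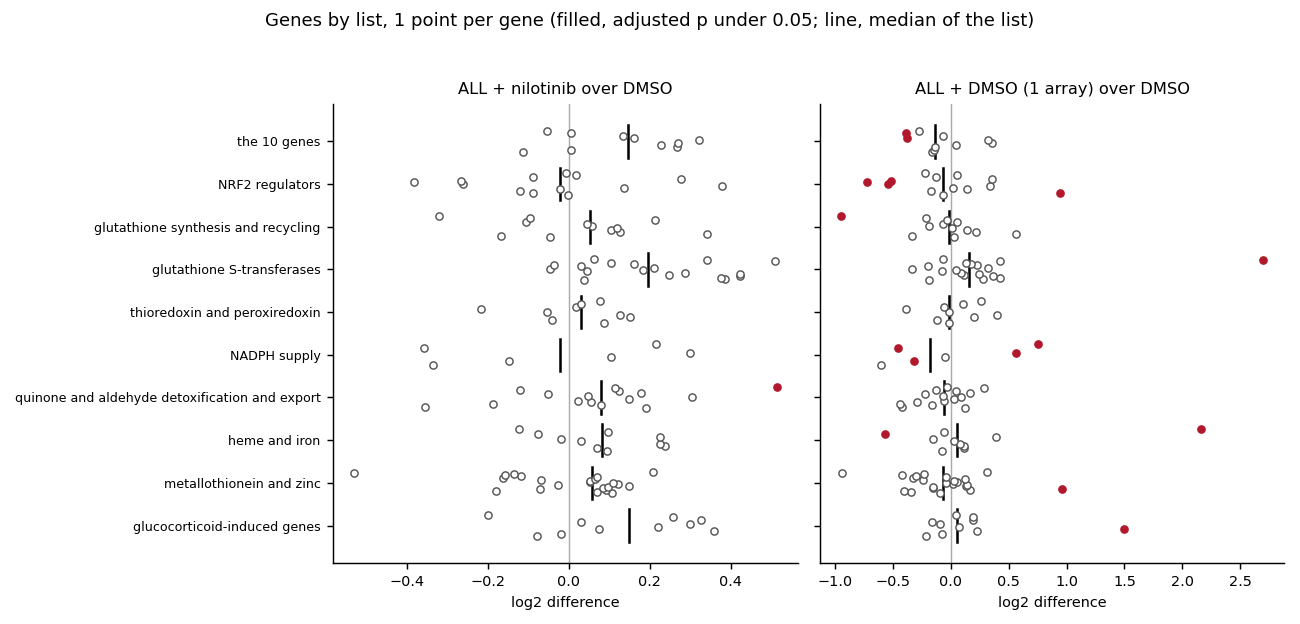
Log2 difference of each gene (points) by list, in MEFs + ALL + nilotinib over MEFs + DMSO (left) and in MEFs + ALL + DMSO over MEFs + DMSO (right, 1 array), with the median of the list as a line; filled red points have an adjusted p under 0.05. On the left the filled point is Sod3, and the horizontal scales of the panels differ.

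In the lists of thioredoxin and peroxiredoxin genes, of NADPH supply and of heme and iron, 0 genes were called in MEFs + ALL + nilotinib over MEFs + DMSO. Of all probesets 16.2% had an unadjusted p under 0.05 in that comparison, and 9.5% had one in the higher direction. Of 9 thioredoxin and peroxiredoxin genes 1 had an unadjusted p under 0.05 in limma's test, and Prdx3, the mitochondrial peroxiredoxin, had 0.15 (adjusted p = 0.26). Txn2, the mitochondrial thioredoxin, had the largest difference of the list, -0.22 (adjusted p = 0.60), with 9.70, 9.62 and 9.75 in MEFs + ALL + nilotinib, below the 9.90, 9.89 and 9.92 of MEFs + DMSO. Of 6 genes of NADPH supply 5 had one, 2 higher and 3 lower, with 0.30 for Pgls (adjusted p = 0.15) and -0.36 for Taldo1 (adjusted p = 0.095), both of the pentose phosphate pathway, and -0.33 for the cytosolic isocitrate dehydrogenase Idh1 (adjusted p = 0.30). Of 10 heme and iron genes 3 had one, all higher, with 0.24 for the biliverdin reductase Blvrb (adjusted p = 0.15), 0.23 for the ferrochelatase Fech (adjusted p = 0.21) and 0.23 for Hmox2, the constitutive heme oxygenase (adjusted p = 0.25).

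In the MEFs + ALL + DMSO array the NADPH supply list split, with Tkt (0.75, adjusted p = 0.0021) and Pgls (0.56, adjusted p = 0.020) higher than in MEFs + DMSO and Taldo1 (-0.46, adjusted p = 0.037) and Me1, the cytosolic malic enzyme and a known NRF2 target (-0.32, adjusted p = 0.032), lower. The calls of Taldo1 and Me1 were lost without any 1 MEFs + DMSO array and that of Pgls without replicate 1. Among the heme and iron genes Tfrc, the transferrin receptor of iron uptake, was higher by 2.16 (adjusted p = 0.00082) and Slc40a1, the iron exporter ferroportin, lower (-0.57, adjusted p = 0.010). The leukocyte markers were high in the same array, as given above, and their part in these values was not tested.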

How the data were processed

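RNA of irradiated MEFs was hybridised to 10 Mouse Gene 1.0 ST arrays, 1 per dish. The deposited values are log2 signals of 35557 probesets, which the authors normalized with RMA according to the study's supplement. Partek is the software in the submitters' processing notes, without a version. The deposited table holds 0 missing values and no detection calls or background, so the depth of a value is unknown and precision is limited by how many arrays there are. The array's annotation gave 21789 probesets exactly 1 gene symbol, 1621 more than 1 and 12147 no symbol, and the Entrez IDs of all 10 genes matched RefSeq (GRCm38.p6), the source of the promoter windows.

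Groups were compared by linear models in limma 3.58.1 under R 4.3.3 (lmFit, eBayes, 4 group means, spread shared over all 10 arrays, two-sided). P-values were adjusted by Benjamini-Hochberg over all 35557 probesets, and an adjusted p under 0.05 is a call. The methods name no test. The fit was also run on simulated arrays of the same layout, with normal noise and changes placed in MEFs + ALL + nilotinib only. That run does not speak to calls with the lone array. Alternatives were limma with a trended robust prior or array weights, quantile normalization or median centring between arrays, a filter on the dimmest 25% of probesets, fits without the MEFs + ALL + DMSO array or with only the groups compared, the replicate number as a block, and each array left out. The probeset with the highest mean stood for a gene. Beside the 10 genes, the text names genes called in any comparison and up to 3 of each of 14 lists (171 of 183 genes measured) with the largest difference in MEFs + ALL + nilotinib over MEFs + DMSO. The cell type marker lists are an exception, given as counts or sums with Thy1 alone named. The 10 genes and the lists were chosen with earlier results of these data known.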

Additional observations from a re-analysis of the deposited data

Results flagged for a closer look

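Differences between dishes with and without ALL cells, under nilotinib and under DMSO, were compared by limma's interaction term. Those of the following genes differed (adjusted p under 0.05 over all probesets). Each rests on the lone MEFs + ALL + DMSO array, in which the summed leukocyte and pro-B signal was 15629; the part of that in these values was not tested.

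Nqo1 had an interaction of 0.50 ± 0.11 (SE, adjusted p = 0.037). It kept its call without replicate 2 of MEFs + ALL + nilotinib (0.53) or replicate 2 of MEFs + nilotinib (0.53), and lost it without any other 1 of the 9 arrays in groups of 3, at 0.47 to 0.52.

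The cystine importer Slc7a11 had an interaction of 0.74 (adjusted p = 0.0068) and the iron exporter Slc40a1 one of 0.60 (adjusted p = 0.033). Negative ones were found for Mgst2 (-2.50, adjusted p = 0.00029), Tfrc (-2.44, adjusted p = 0.0020), the glucocorticoid-induced Fkbp5 (-1.33, adjusted p = 0.0017), Bach2 (-1.01, adjusted p = 0.0060) and Tkt (-0.60, adjusted p = 0.031). The calls of Tkt and Slc40a1 were lost without any 1 MEFs + DMSO array and without some of the other arrays.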

How the results depend on the processing

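With replicates on either side, 0 of the 10 genes were called under each of the 14 alternatives of each of the 3 comparisons. Among these, the fit without the MEFs + ALL + DMSO array could not differ from the main fit, since a lone array adds nothing to the spread. Mt1 came closest, in MEFs + ALL + nilotinib over MEFs + DMSO. It had 0.30 with array weights, just above the threshold (adjusted p = 0.0502, limma), and 0.27 with a trended robust prior (adjusted p = 0.094). Counts over all probesets did. In MEFs + ALL + nilotinib over MEFs + DMSO 223 probesets were called, 476 with a trended robust prior, 1263 with array weights, 421 without the dimmest 25% of probesets, 12 with only the groups compared and 8 to 99 with 1 array left out. Over MEFs + nilotinib 66 were called, and 117, 141, 115, 4 and 12 to 36 under the same settings. For nilotinib alone 0 were called, and 0 to 57 with 1 array left out, the 57 without replicate 1 of MEFs + nilotinib; the cause was not tested. With the lone MEFs + ALL + DMSO array over MEFs + DMSO 3651 were called, 6615 with array weights and 2137 to 2491 with 1 array left out. Set over that array MEFs + ALL + nilotinib had 1543 calls, 535 with only the groups compared, and the interaction 1406, 2323 with array weights.

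Of the 10 genes, 2 were called in MEFs + ALL + DMSO over MEFs + DMSO (4 with a trended robust prior or array weights, which add Mt1 and Txnrd1, and 0 with only the groups compared or with any 1 MEFs + DMSO array left out). In MEFs + ALL + nilotinib over MEFs + ALL + DMSO 1 was called (2 with those priors or weights, 0 with only the groups compared). The interaction called 1 (0 with median centring, 0 to 1 with 1 array left out). The values of Nqo1 and Srxn1 in comparisons with that array, and of other named genes, were checked under alternatives added after the data were seen. Of 33 such calls of other genes, 16 held under every alternative run and 0 of 342 values changed sign.

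Of 521 alternative values for the 10 genes, 31 changed sign, all in differences that were not called, and the cause was not tested. Some of the 521 could not differ from the main values. These are the replicated comparisons fitted without the MEFs + ALL + DMSO array, and means over a gene's single-symbol probesets, since each gene has exactly 1. In MEFs + ALL + nilotinib over MEFs + DMSO Gclm had -0.027 with quantile normalization and -0.055 to 0.092 with 1 array left out, and Srxn1 -0.031 with quantile normalization, -0.039 with array weights and -0.048 to 0.048 with 1 array left out. Over MEFs + nilotinib array weights gave 0.021 for Gclc, 0.013 for Gclm and -0.031 for Srxn1, and Txnrd1 had 0.016 with quantile normalization and 0.00099 with median centring. With 1 array left out, Gclc ran from -0.13 to 0.030, Gclm from -0.12 to 0.028, Txnrd1 from -0.026 to 0.013, Srxn1 from -0.041 to 0.055 and Osgin1 from -0.026 to 0.074. For nilotinib alone Nqo1 had -0.011 with quantile normalization, Srxn1 0.012 with median centring, and Mt1 0.00042 with array weights and 0.013 with median centring, while with 1 array left out Gclc ran from -0.082 to 0.021, Srxn1 from -0.039 to 0.023 and Mt1 from -0.055 to 0.045.

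Replicate numbers name dishes. Deviations of arrays with the same number correlated at -0.29 to 0.24, so the numbers were not taken as pairs. A replicate block over the 9 numbered arrays gave 8 calls in MEFs + ALL + nilotinib over MEFs + DMSO, 12 over MEFs + nilotinib and 0 for nilotinib alone, with 0 of the 10 genes in each. The values carry no background signal, so whether dim probesets measured their transcript cannot be told.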

Other observations

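Metallothionein genes also respond to glucocorticoids, so 10 glucocorticoid-induced genes were listed. In MEFs + ALL + nilotinib over MEFs + DMSO limma called 0 of the 10, 5 had an unadjusted p under 0.05, all higher, and the median difference was 0.15, against -0.0042 over all probesets. Such an unadjusted p was found for 16.2% of all probesets, and for 9.5% in the higher direction. Errfi1, a feedback inhibitor of EGF receptor signalling, had 0.36 (adjusted p = 0.24), the kinase gene Sgk1 0.33 (adjusted p = 0.17) and Lcn2, a siderophore-binding protein that inflammation also induces, 0.30 (adjusted p = 0.28). Over MEFs + nilotinib limma called 0 of the 10, 2 had an unadjusted p under 0.05, against 9.27% of all probesets, and the median was 0.15. The part of glucocorticoids in the metallothionein values was not tested. Fkbp5, a co-chaperone of the glucocorticoid receptor, had the largest difference of the 10 in the lone MEFs + ALL + DMSO array, higher than in MEFs + DMSO by 1.5. The summed leukocyte and pro-B signal was 15629 in that array, against 4018 to 4307 in MEFs + DMSO. Its part in the value of Fkbp5 was not tested.

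Over the 10 arrays Mt2 was the metallothionein and Gsta4 the NRF2 target with the largest SD, 0.25 and 0.17. Among 19928 other genes, the values most like those of Mt2 were those of Haghl (Pearson r = 0.97, Spearman rho = 0.99), Sprr1a (0.97 and 0.95) and U90926 (0.94 and 0.95). Those most like Gsta4 were of Itm2b (0.97 and 0.96), Trim16 (0.93 and 0.98) and Gzme (0.92 and 0.96). Without the MEFs + ALL + DMSO array Pearson r was 0.95 to 0.98 for the genes like Mt2 and 0.90 to 0.96 for those like Gsta4. The arrays share groups, and these are the highest of many correlations, given as a description.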
